A study of Homo sapiens with 61 samples.

Results

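The gamma-tubulin ring complex was followed through 9 genes: the gamma-tubulins TUBG1 and TUBG2, the core subunits TUBGCP2, TUBGCP3, TUBGCP4, TUBGCP5 and TUBGCP6, the small subunit MZT1 and the attachment factor NEDD1. They were picked by symbol from 58440 gene identifiers, and the choice was also made because TUBG1 was already seen to be lower with vincristine and TUBG2 was not. The vincristine values of the members are therefore given as a description and support nothing by themselves. All 9 members passed the filter on low counts in both experiments, with 18235 genes tested in experiment 1 and 20759 in experiment 2.

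RNA was sequenced from 61 cultures of NGN2-induced neurons of WTC11, an established line of human induced pluripotent stem cells. Experiment 1 compared wild type (WT), a knockout of DLK (DLK KO), one of LZK (LZK KO) and one of both (DLK LZK double KO, called double KO below), all with a doxycycline-inducible NGN2 cassette, with 4 untreated and 4 vincristine libraries of each. DLK and LZK, encoded by MAP3K12 and MAP3K13, are stress kinases upstream of JNK signalling. Experiment 2 used i3Neurons, which are also NGN2-driven, that carried CRISPR interference machinery and a lentiviral guide RNA (gRNA): Control gRNA (a scrambled guide), ATF2 gRNA or JUN gRNA. ATF2 and JUN are transcription factors phosphorylated in that pathway. Each of these groups had 5 libraries, except ATF2 gRNA with vincristine, which had 4. Treated cultures received 5 nM vincristine, which depolymerises microtubules, for 16 hours from day 14, and the cultures labelled untreated received DMSO. The labels do not say how many clones stand behind each KO line or whether libraries of a group came from separate differentiations, so p-values measure the spread between these libraries, which may be technical. The experiments were fitted apart, and levels were not compared between them.

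Gamma-tubulin is the tubulin that starts new microtubules. It joins with the GCP subunits into a ring whose exposed gamma-tubulins hold the first alpha- and beta-tubulin dimers in place, MZT1 binds the ends of GCP subunits, and NEDD1 tethers the ring to centrosomes, spindles and existing microtubules. Mature neurons rely largely on rings away from the centrosome, in dendrites and along axons.

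TUBG1 (ENSG00000131462.7, chr17:42609676-42615234, plus strand, GRCh38) and TUBG2 (ENSG00000037042.8, chr17:42659305-42667006, plus strand) lie 44070 bases apart with 2 pseudogenes between them. Their coding sequences are 1353 bases each and 94.7% identical, and 226 windows of 100 bases, the read length, are the same in both genes, which is 8.79% of the TUBG1 windows and 7.81% of the TUBG2 windows. A read that lies wholly within such a window cannot be told apart by itself, though its mate may place it, and how the authors' counting treated these reads is not given in the sources used here. The first 30 coding bases of both, from GENCODE 29, are shown because alpha- and beta-tubulin mRNAs are known to be degraded when free tubulin dimers rise, through recognition of the first residues of the nascent chain. Those of TUBB and TUBA1B, a beta- and an alpha-tubulin that are among the genes most like TUBG1 below, are shown for comparison, with the first 4 codons in capitals.
TUBG1: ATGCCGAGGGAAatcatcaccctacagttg
TUBG2: ATGCCCCGGGAGatcatcaccctgcagctg
TUBB: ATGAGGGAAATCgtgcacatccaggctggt
TUBA1B: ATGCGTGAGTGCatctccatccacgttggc
The longest run shared by the TUBG1 and TUBB starts is the 10 bases GAGGGAAATC, at bases 6 to 15 of TUBG1 and bases 3 to 12 of TUBB, counted from the first base of the start codon. The run is in the same reading frame in both, shifted by 1 codon. TUBG1 and TUBG2 differ at 5 of the 30 bases, and all 10 codons shown encode the same residues in both. The longest shared run was 11 bases for TUBG1 with TUBG2 and 6 bases for TUBB with TUBA1B. It was 4 bases for TUBG1 with TUBA1B, for TUBG2 with TUBA1B and for TUBG2 with TUBB. A shared run is a description of these letters, and its part in the transcript levels below was not tested.

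The other members lie elsewhere in the genome. TUBGCP2 (ENSG00000130640.13) is at chr10:133278630-133312337 on the minus strand, TUBGCP3 (ENSG00000126216.13) at chr13:112485005-112588167 on the minus strand, TUBGCP4 (ENSG00000137822.12) at chr15:43369221-43409771 on the plus strand and TUBGCP5 (ENSG00000275835.4) at chr15:22983192-23039673 on the minus strand. TUBGCP6 (ENSG00000128159.11) is at chr22:50217689-50244992 on the minus strand, MZT1 (ENSG00000204899.5) at chr13:72708357-72727687 on the minus strand and NEDD1 (ENSG00000139350.11) at chr12:96907223-96953777 on the plus strand. Exons on the opposite strand overlap 33.4% of the TUBGCP4 exon bases (TP53BP1), 11.6% of those of TUBGCP2 (ZNF511) and 5.77% of those of TUBG1 (RETREG3). The library kit keeps strand, but whether the counting used it is not given in the sources used here.

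Since ATF2 and JUN were targeted, the 250 bases before each RefSeq start (GRCh38.p14) were searched for the cAMP response element TGACGTCA, a site known to be bound by ATF2 with JUN, and for the AP-1 site TGANTCA, on both strands. Promoters were found for 8 of the 9 members, in 10 entries, and TUBGCP4 had none. The cAMP response element was present in 1 entry each of NEDD1, 66 bases before the start, and TUBGCP2, 13 bases before its second start, against 1.65% of 35116 promoters. The AP-1 site was in 0 members, against 6.57% of those promoters. The 2 promoters with the element, in capitals, and that of TUBG1 are shown 5′ to 3′ on the strand of the gene.
NEDD1, chr12:96907007-96907256, plus strand: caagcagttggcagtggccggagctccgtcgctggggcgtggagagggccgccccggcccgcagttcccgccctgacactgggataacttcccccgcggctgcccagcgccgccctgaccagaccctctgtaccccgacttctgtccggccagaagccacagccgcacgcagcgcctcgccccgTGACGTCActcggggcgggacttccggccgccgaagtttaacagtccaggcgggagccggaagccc
TUBGCP2, chr10:133308873-133309122, minus strand: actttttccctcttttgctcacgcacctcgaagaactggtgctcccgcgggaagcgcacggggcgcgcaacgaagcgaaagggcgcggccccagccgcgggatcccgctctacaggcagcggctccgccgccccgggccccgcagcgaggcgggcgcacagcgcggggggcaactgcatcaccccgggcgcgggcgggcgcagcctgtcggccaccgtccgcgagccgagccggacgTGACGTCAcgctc
TUBG1, chr17:42609433-42609682, plus strand: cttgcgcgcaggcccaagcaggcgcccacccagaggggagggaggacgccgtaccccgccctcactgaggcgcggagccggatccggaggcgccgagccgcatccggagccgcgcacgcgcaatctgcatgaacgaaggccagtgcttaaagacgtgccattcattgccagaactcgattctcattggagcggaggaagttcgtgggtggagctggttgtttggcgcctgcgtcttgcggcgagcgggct
A match is a description and not evidence of binding, and no match says only that these letters are not in this window.

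Total counts per library were 8.41 to 14.6 M (mega) for experiment 1, with a median of 10.3 M, and 38.9 to 88.4 M for experiment 2, with a median of 53.5 M. In the untreated lines MAP3K12 stood at 28.9% of its WT level in DLK KO and at 21.6% in double KO. MAP3K13 stood at 32.2% in LZK KO and 29.9% in double KO of its WT level, and the guides left 0.409% of ATF2 and 3.24% of JUN relative to Control gRNA. Transcript left in a KO line can still be read from an edited gene. Targeted transcripts also differed in lines made against another gene. Mean untreated JUN was 21.0 CPM in ATF2 gRNA against 88.5 CPM in Control gRNA. In WT it was 140 CPM, against 55.3 for DLK KO, 39.6 for the double KO and 116 for LZK KO. Mean untreated ATF2 was 141 CPM in WT, 71.0 for DLK KO, 148 for the double KO and 165 for LZK KO. It was 153 CPM in JUN gRNA and 129 CPM in Control gRNA. The part of these differences in the values below was not tested. The 8 neuron markers summed to between 4491 and 8006 CPM in every library, while 4 astrocyte markers summed to at most 6.63 CPM and 4 mesenchymal markers to at most 2.18 CPM. The 4 oligodendrocyte lineage markers summed to 13.4 to 45.0 CPM in experiment 1 and 6.94 to 20.9 CPM in experiment 2. Of these 4, 2 passed the filter on low counts in each experiment, and SOX10 had no more than 3 counts in any library. One library stood apart for several members: WT vincristine replicate 4 had 62.6 CPM of TUBGCP2 and 30.2 CPM of TUBGCP6, against 87.2 to 91.3 and 56.0 to 64.0 in the other WT vincristine libraries. Over all genes tested, that library had a median Pearson r of log2 CPM of 0.974 with the others of its group. This was the lowest in experiment 1, where the median over libraries was 0.989. In bulk RNA, fewer cells of a type and less RNA per cell cannot be told apart.

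TUBG1 had the highest level of the 9 members per length. In untreated WT libraries it stood at 17.5 ± 1.08 RPKM (CPM divided by exon length in kilobases, SD, n = 4), followed by MZT1 at 11.5 ± 1.78, TUBGCP2 at 10.3 ± 0.107 and TUBG2 at 8.48 ± 0.718. TUBGCP3 (6.87 ± 0.238) and TUBGCP6 (6.81 ± 0.491) came next and overlapped, then TUBGCP5 (5.53 ± 0.150), TUBGCP4 (3.68 ± 0.0761) and NEDD1 (1.31 ± 0.267). In untreated Control gRNA libraries TUBG1 was again first, at 30.2 ± 0.905 RPKM (n = 5), and NEDD1 last, at 1.21 ± 0.135. There MZT1 (11.8 ± 0.933) and TUBG2 (11.5 ± 0.775) overlapped, as did TUBGCP3 (7.93 ± 0.293) with TUBGCP6 (7.86 ± 0.431), and TUBGCP4 (5.56 ± 0.125) with TUBGCP5 (5.41 ± 0.398).

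TUBG1, the gamma-tubulin of most dividing cells, was lower with vincristine in all 7 lines, and in each of them every treated library lay below every untreated one. In WT the untreated libraries held 44.3, 41.9, 43.7 and 38.4 CPM, and the vincristine libraries 14.2, 14.4, 11.3 and 13.5 CPM. The treated libraries were at 31.6% of the untreated level, a log2 fold change of -1.66 ± 0.09 (SE). In Control gRNA the untreated libraries held 73.4, 75.1, 74.4, 72.1 and 69.6 CPM and the treated ones 28.5, 31.9, 28.6, 30.0 and 26.5 CPM, which is 40.0% of untreated and a log2 fold change of -1.32 ± 0.07.

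The same separation stood in the lines without DLK, LZK or both. DLK KO libraries held 41.6, 37.8, 38.4 and 34.6 CPM of TUBG1 untreated and 17.6, 16.5, 18.6 and 14.8 CPM with vincristine (log2 fold change -1.18 ± 0.09). LZK KO libraries held 31.0, 30.6, 37.2 and 31.4 CPM untreated and 16.7, 15.4, 15.6 and 20.0 CPM with vincristine (-0.95 ± 0.09). Double KO libraries held 35.7, 34.3, 33.3 and 37.5 CPM untreated and 18.2, 15.7, 16.7 and 17.3 CPM with vincristine (-1.06 ± 0.09). The treated libraries of these 3 lines lay between 14.8 and 20.0 CPM, all above the 11.3 to 14.4 CPM of the treated WT libraries, although their untreated means were below that of WT.

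Knockdown of ATF2 or JUN left a similar picture. ATF2 gRNA libraries held 59.4, 55.0, 55.1, 58.4 and 62.6 CPM of TUBG1 untreated and 34.1, 31.0, 25.9 and 29.8 CPM with vincristine (log2 fold change -0.94 ± 0.07). JUN gRNA libraries held 69.3, 67.7, 76.9, 60.8 and 70.1 CPM untreated and 37.1, 29.1, 32.6, 29.7 and 37.3 CPM with vincristine (-1.06 ± 0.07). The treated libraries of all 3 lines of experiment 2 overlapped, between 25.9 and 37.3 CPM.

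TUBG2, the gamma-tubulin enriched in brain, stayed far closer to its untreated level. In WT it stood at 24.8, 22.2, 21.5 and 25.6 CPM untreated and at 23.7, 21.3, 24.2 and 20.8 CPM with vincristine, and the libraries overlapped (log2 fold change -0.06 ± 0.10). In Control gRNA it stood at 31.8, 33.5, 31.2, 28.5 and 33.9 CPM untreated and at 27.2, 27.6, 26.6, 29.8 and 20.5 CPM with vincristine (-0.27 ± 0.08). In JUN gRNA it stood at 31.2, 30.9, 32.6, 28.2 and 32.2 CPM untreated and at 27.7, 21.4, 24.4, 27.3 and 27.7 CPM with vincristine (-0.27 ± 0.08), with the libraries apart.

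The TUBG2 fold change was below 0 in all 7 lines and passed the call rule (adjusted p under 0.05 in edgeR's quasi-likelihood test) in 2 of them, Control gRNA and JUN gRNA, against the statement in the choice of members that TUBG2 does not fall. Both calls rest on single libraries: the first was lost without Control gRNA vincristine replicate 5, and the second without JUN gRNA vincristine replicate 2. The other 4 fold changes were -0.27 ± 0.11 (DLK KO), -0.23 ± 0.11 (LZK KO), -0.33 ± 0.11 (double KO) and -0.25 ± 0.09 (ATF2 gRNA). In double KO the TUBG2 libraries were also apart, at 12.4 to 15.6 CPM with vincristine against 17.4 to 20.6 CPM untreated. Of the 4 lines, double KO was called with only the groups compared in the fit (adjusted p = 0.0227 in edgeR). ATF2 gRNA was called without its untreated replicate 2 (adjusted p = 0.0358 in edgeR). The TUBG1 fold changes in those lines were all at or beyond -0.94.

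**Figure D1:**
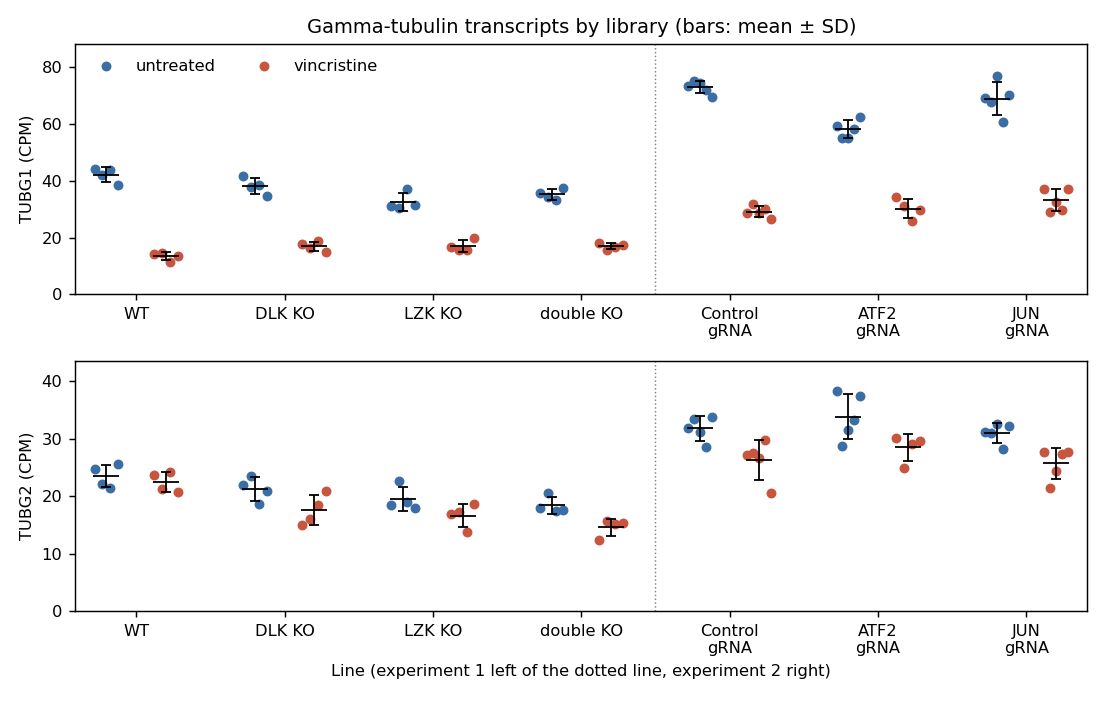
TUBG1 (upper panel) and TUBG2 (lower panel) in CPM (vertical axis, from 0) for each library of the 7 lines (horizontal axis), untreated in blue and vincristine in red, with the mean and SD of each group as black bars. TUBG1 libraries with vincristine lie below all untreated libraries of their line, from 11.3 to 14.4 against 38.4 to 44.3 CPM in WT, while TUBG2 libraries overlap in WT. In double KO and JUN gRNA the TUBG2 libraries lie apart.

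The ratio of TUBG1 to TUBG2 within a library does not depend on library scaling. In untreated WT libraries the RPKM ratio was 2.06, 2.17, 2.34 and 1.72, so TUBG1 was the more abundant gamma-tubulin transcript. With vincristine it was 0.688, 0.776, 0.538 and 0.745, so in WT the order was turned around. WT was the one line where all treated libraries had a ratio below 1. The mean went from 2.07 ± 0.244 (SD) to 1.12 ± 0.223 for DLK KO, from 1.94 ± 0.292 to 1.17 ± 0.115 for LZK KO and from 2.21 ± 0.219 to 1.35 ± 0.236 for the double KO. For Control gRNA it went from 2.65 ± 0.202 to 1.28 ± 0.130, for ATF2 gRNA from 1.99 ± 0.151 to 1.23 ± 0.176, and for JUN gRNA from 2.55 ± 0.0931 to 1.49 ± 0.132. One treated library outside WT was below 1, DLK KO replicate 4 at 0.814.

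The untreated ratio was not used in choosing the members and was tested. Untreated ATF2 gRNA libraries had RPKM ratios of 1.78, 2.20, 2.01, 2.01 and 1.92, all below the 2.65, 2.58, 2.74, 2.91 and 2.36 of Control gRNA. The log2 count ratio differed by -0.42, with p = 0.00794 in a 2-sided exact permutation test, the smallest that 5 against 5 libraries allow, and 0.0397 after adjustment over the 5 comparisons. With 1 library left out, the adjusted p was 0.0794 in the exact test, from the smallest p that 4 against 5 libraries allow, so that repeat says nothing about stability. The other 4 untreated lines differed from their control by between -0.10 and 0.09, with adjusted p of 0.643 to 0.943 in the same exact test, and their libraries overlapped with those of the control.

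**Figure D2:**
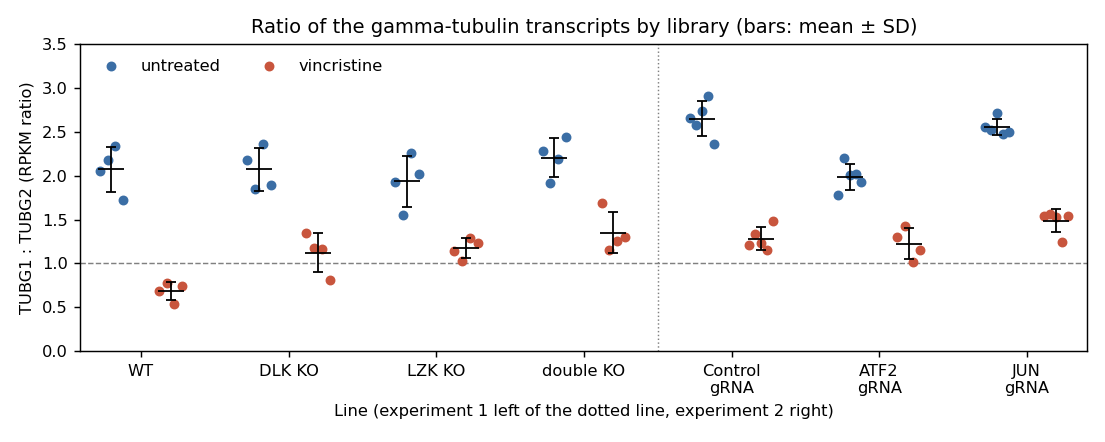
Ratio of TUBG1 to TUBG2 in RPKM (vertical axis, from 0, dashed line at 1) for each library of the 7 lines (horizontal axis), untreated in blue and vincristine in red, with mean and SD as black bars. Untreated ratios lie between 1.55 and 2.91, and in WT the treated libraries lie between 0.538 and 0.776.

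The 5 GCP subunits, which build the ring itself, had 35 log2 fold changes with vincristine over the 7 lines, which ran from -0.16 to 0.37. TUBGCP4, one of the subunits found in few copies per ring, passed the call rule in 2 lines. In Control gRNA it stood at 63.7, 62.5, 62.7, 59.9 and 62.0 CPM untreated and at 75.3, 70.9, 74.9, 70.6 and 71.7 CPM with vincristine, with the libraries apart (0.23 ± 0.04). In JUN gRNA it stood at 63.3, 62.8, 66.2, 64.8 and 61.6 CPM untreated and at 73.9, 73.0, 76.9, 72.7 and 68.3 CPM with vincristine, also apart (0.19 ± 0.04). In ATF2 gRNA the TUBGCP4 fold change was 0.04 ± 0.05. TP53BP1, which overlaps it on the other strand, had -0.13 ± 0.03 in Control gRNA.

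TUBGCP3, which with TUBGCP2 forms most of the ring wall, was called in Control gRNA, where the untreated libraries held 57.5, 57.4, 54.8, 52.6 and 55.9 CPM and the treated ones 62.8, 60.2, 64.7, 61.8 and 59.6 CPM (0.15 ± 0.05). Leaving out untreated replicate 4 or treated replicate 3 of that line ended the call. TUBGCP2 had 0.07 ± 0.09 in WT and 0.02 ± 0.04 in Control gRNA, and TUBGCP6, the largest subunit, 0.03 ± 0.15 and 0.03 ± 0.06. Without WT vincristine replicate 4 the WT values were 0.18 for TUBGCP2 and 0.22 for TUBGCP6. For DLK KO the values were 0.25 ± 0.10 for TUBGCP2 and 0.37 ± 0.15 for TUBGCP6, not called in the fit of all groups and called in edgeR with only the groups compared (adjusted p of 0.00828 and 0.00978). TUBGCP3 in WT was called without WT vincristine replicate 2, at 0.22. TUBGCP5 had -0.13 ± 0.07 in WT and -0.06 ± 0.06 in Control gRNA. Its JUN gRNA value, not called in the fit of all groups, was called at -0.15 by DESeq2 (adjusted p = 0.0367). In edgeR it was called at -0.15 with a filter at a mean of 1 CPM (adjusted p = 0.0478). It was also called at -0.18 without JUN gRNA untreated replicate 3 or 5.

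MZT1 stood out in WT. Its untreated WT libraries held 32.5, 24.2, 24.3 and 24.4 CPM and the treated ones 13.0, 14.7, 16.3 and 23.7 CPM, so the groups did not overlap, but treated replicate 4 came within 1 CPM of the untreated libraries (log2 fold change -0.65 ± 0.16, and -0.84 without that library). In Control gRNA it stood at 30.7, 26.1, 26.6, 25.1 and 27.0 CPM untreated and at 21.8, 20.8, 25.5, 21.0 and 23.5 CPM with vincristine, with overlap (-0.27 ± 0.10). That call was lost without any of 7 single libraries: Control gRNA untreated replicates 1, 2, 3 and 5 and vincristine replicates 1, 2 and 4. In double KO the direction was the other one, with 21.9, 19.8, 25.2 and 21.6 CPM untreated and 29.3, 27.0, 25.8 and 26.2 CPM with vincristine, apart but not called (0.29 ± 0.15), a value that was called with only the groups compared in the fit (adjusted p = 0.0121 in edgeR). In ATF2 gRNA, MZT1 was called without vincristine replicate 2, at -0.35.

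NEDD1, the member with the fewest reads, had 0.20 ± 0.16 in WT, with 5.93, 4.85, 7.51 and 5.17 CPM untreated and 6.48, 6.12, 5.65 and 9.27 CPM treated. In Control gRNA it was called, with 5.55, 5.74, 6.11, 4.63 and 4.93 CPM untreated and 6.44, 5.71, 6.59, 6.73 and 8.05 CPM treated (0.31 ± 0.12), though 1 treated library fell among the untreated ones. The call ended when untreated replicate 1, 4 or 5, or any of the treated replicates 3, 4 and 5, of that line was left out. In the other 5 lines its fold change lay between -0.28 and 0.11.

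In all, 2 of the 9 members were called with vincristine in WT (30.2% of all genes tested), 1 for DLK KO (6.53%), 1 for LZK KO (3.88%), 1 for the double KO (0.0658%), 6 for Control gRNA (35.3%), 1 for ATF2 gRNA (6.10%) and 3 for JUN gRNA (15.9%). TUBG1 is the member called in all of them. Treated and untreated libraries were apart for 2 members in WT (25.0% of all genes), 1 for DLK KO (19.5%), 1 for LZK KO (7.79%), 3 for the double KO (9.94%), 3 for Control gRNA (28.9%), 1 for ATF2 gRNA (7.36%) and 3 for JUN gRNA (11.8%). Because the members were chosen on this contrast, nothing is read from these counts. The median log2 fold change of the members was 0.03 in WT and 0.02 in Control gRNA, and that of all genes tested lay between -0.02 and 0.03 in the 7 lines.

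**Figure D3:**
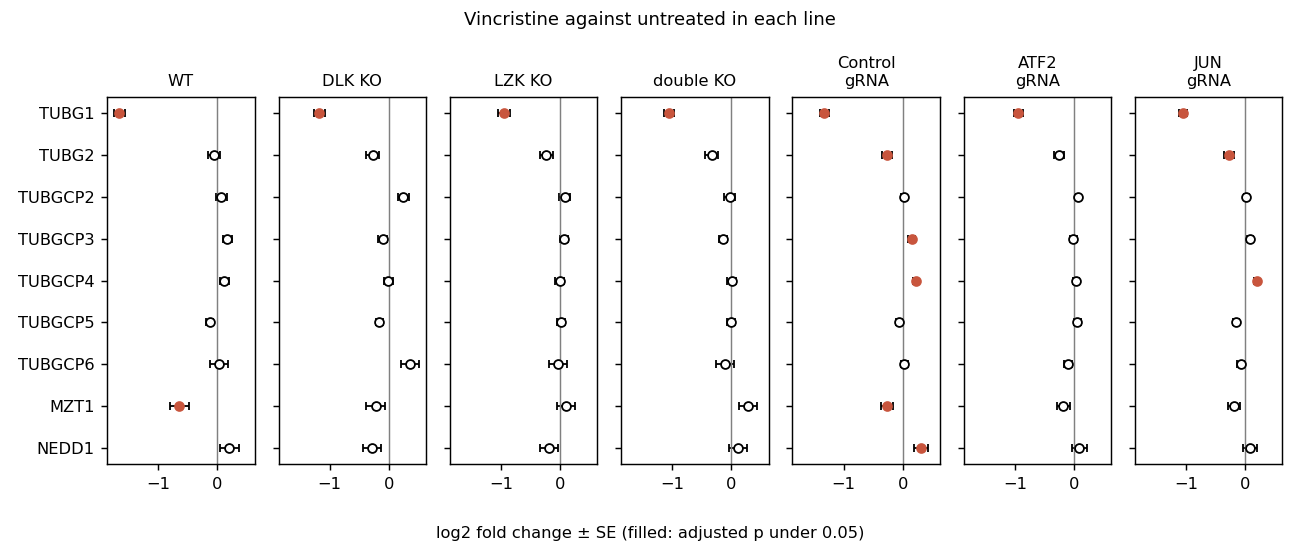
Log2 fold change of vincristine against untreated (horizontal axis) with its SE for the 9 members (vertical axis) in each of the 7 lines (panels), filled red where the adjusted p was under 0.05. TUBG1 lies between -1.66 and -0.94 in every line, and the GCP subunits lie between -0.16 and 0.37.

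The vincristine effect on TUBG1 was smaller in size in the lines without the kinases than in WT. The difference in log2 fold change from WT was 0.48 ± 0.13 for DLK KO, 0.71 ± 0.13 for LZK KO and 0.60 ± 0.13 for the double KO. The ATF2 gRNA effect differed from that of Control gRNA by 0.38 ± 0.10, and the JUN gRNA effect by 0.26 ± 0.10. The interaction term passed the call rule for the first 4 and not for JUN gRNA (adjusted p = 0.0509 in edgeR). DESeq2 called the JUN gRNA difference as well, and so did edgeR without Control gRNA vincristine replicate 2, JUN gRNA untreated replicate 3, or JUN gRNA vincristine replicate 2 or 4. These terms contain the contrast used in choosing the members and, within an experiment, share the control libraries.

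MZT1 differed from WT by 0.75 ± 0.22 in LZK KO and 0.93 ± 0.22 in double KO, both called, and by 0.42 ± 0.22 in DLK KO. The LZK KO call was lost without LZK KO vincristine replicate 2 or WT untreated replicate 1. That same call was lost with only the groups compared in the fit. The DLK KO difference was called without WT vincristine replicate 4, at 0.62. TUBGCP3 differed by -0.31 ± 0.10 in double KO, a call that was lost without any of 6 single libraries (double KO untreated replicate 1, double KO vincristine replicates 1 and 4, WT untreated replicates 1 and 3, WT vincristine replicate 3). The TUBGCP3 difference in DLK KO was called without DLK KO untreated replicate 3, DLK KO vincristine replicate 2 or 4, or WT vincristine replicate 2 (-0.32 to -0.30), and that in ATF2 gRNA without ATF2 gRNA vincristine replicate 4 (-0.23). TUBGCP4 differed by -0.19 ± 0.06 between ATF2 gRNA and Control gRNA, a call that was lost without ATF2 gRNA vincristine replicate 2. The members called for a difference numbered 1 for DLK KO (19.4% of all genes), 2 for LZK KO (12.4%), 3 for the double KO (19.4%), 2 for ATF2 gRNA (20.6%) and 0 for JUN gRNA (15.8%; 1 at an unadjusted p under 0.05, and 1 called by DESeq2), and nothing is read from these counts.

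**Figure D4:**
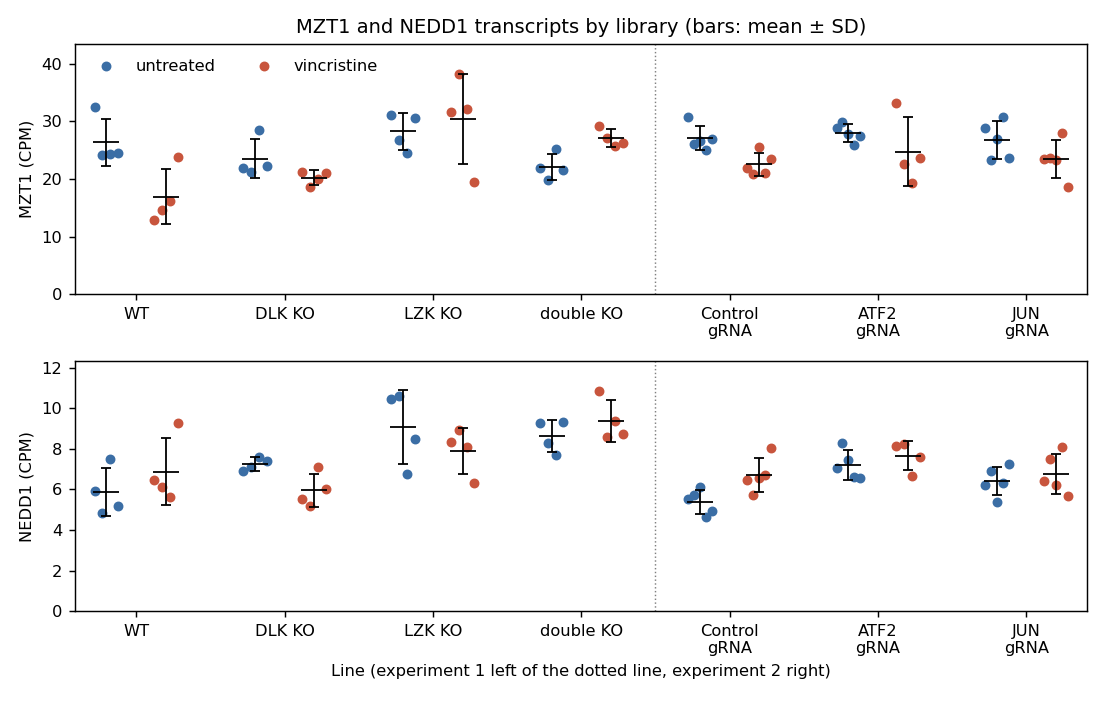
MZT1 (upper panel) and NEDD1 (lower panel) in CPM (vertical axis, from 0) for each library of the 7 lines (horizontal axis), untreated in blue and vincristine in red, with mean and SD as black bars. MZT1 with vincristine lies at 13.0 to 23.7 CPM in WT and at 25.8 to 29.3 CPM in double KO, and untreated NEDD1 lies at 4.85 to 7.51 CPM in WT and at 7.72 to 9.31 CPM in double KO.

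Untreated lines were compared with their control to describe how they differed before any drug, and these comparisons were not used in choosing the members. An effect of the targeted gene cannot be told apart here from other differences between the lines. NEDD1 was higher in 3 of the 5 lines. It rose in LZK KO, with 10.5, 10.6, 6.75 and 8.48 CPM against 5.93, 4.85, 7.51 and 5.17 CPM in WT, where 1 library of each group crossed (log2 fold change 0.60 ± 0.16, adjusted p = 0.00285). It rose in double KO, with 9.25, 8.26, 7.72 and 9.31 CPM, all above WT (0.54 ± 0.16, adjusted p = 0.00443). It rose in ATF2 gRNA, with 7.03, 8.31, 7.47, 6.63 and 6.55 CPM against 5.55, 5.74, 6.11, 4.63 and 4.93 CPM in Control gRNA, all above (0.42 ± 0.12, adjusted p = 0.00458). The values in DLK KO (0.29 ± 0.16) and JUN gRNA (0.25 ± 0.12) were not called, and that of DLK KO was 0.46 and called without WT untreated replicate 3 (adjusted p = 0.0402 in edgeR).

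TUBG1 fell in 3 of the 5 untreated lines. With the libraries given above, it was lower on the log2 scale by 0.37 ± 0.09 in LZK KO (adjusted p = 0.000929 in edgeR). It was lower by 0.26 ± 0.09 in double KO (adjusted p = 0.012 in edgeR) and by 0.33 ± 0.07 in ATF2 gRNA (adjusted p = 6.81e-05 in edgeR). In each of these lines all libraries were below those of the control. The double KO call was lost without double KO untreated replicate 3. TUBG2 fell in double KO, where 18.0, 20.6, 17.4 and 17.7 CPM all lay below WT (-0.35 ± 0.10, adjusted p = 0.00628). In LZK KO, TUBG2 stood at 18.5, 22.6, 19.0 and 17.9 CPM and overlapped with WT (-0.27 ± 0.11, adjusted p = 0.0471), and that call was lost without LZK KO untreated replicate 1, 3 or 4 or WT untreated replicate 1 or 4. In ATF2 gRNA, TUBG2 was not called (0.09 ± 0.08).

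Of the GCP subunits, TUBGCP2 fell in 3 lines. It stood at 79.1, 79.6, 80.1 and 78.2 CPM in WT, at 61.8, 63.9, 70.1 and 61.3 CPM in DLK KO (-0.30 ± 0.10, adjusted p = 0.0122) and at 59.1, 58.0, 55.7 and 61.1 CPM in double KO (-0.44 ± 0.10, adjusted p = 0.000218), with the libraries apart in both. In LZK KO its libraries held 68.2, 59.9, 75.9 and 66.3 CPM, also apart but not called (-0.23 ± 0.10), a value that was called without LZK KO untreated replicate 3 (-0.32) and with only the groups compared in the fit. In ATF2 gRNA it stood at 68.9, 62.1, 63.7, 67.4 and 63.3 CPM against 72.8, 74.3, 71.9, 68.5 and 70.9 CPM in Control gRNA (-0.14 ± 0.04, adjusted p = 0.00964), with overlap.

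TUBGCP6 fell in DLK KO, from 48.8, 57.6, 50.6 and 52.4 CPM in WT to 31.2, 39.1, 41.2 and 45.2 CPM (-0.42 ± 0.15, adjusted p = 0.0318), a call that did not stand when DLK KO untreated replicate 1 or 2, or WT untreated replicate 2 or 4, was left out. It also fell in ATF2 gRNA, from 61.0, 57.3, 57.6, 65.5 and 60.8 CPM to 51.3, 44.5, 52.7, 58.1 and 53.7 CPM (-0.22 ± 0.06, adjusted p = 0.00498), with 1 overlapping library. TUBGCP3 (-0.28 ± 0.07, adjusted p = 0.00154) and TUBGCP5 (-0.33 ± 0.07, adjusted p = 8.8e-05) fell in double KO. There TUBGCP3 held 42.1, 39.8, 37.6 and 39.4 CPM against 46.4, 50.3, 47.5 and 48.4 CPM in WT, and TUBGCP5 held 29.3, 28.3, 27.6 and 28.5 CPM against 34.8, 36.8, 35.2 and 36.5 CPM, apart in both cases. In LZK KO, TUBGCP3 held 38.0, 45.6, 42.3 and 44.3 CPM, also below all WT libraries and not called (-0.18 ± 0.07, adjusted p = 0.0524), and it was called by DESeq2 (adjusted p = 0.0363), with RLE factors, with a filter at a mean of 1 CPM, and without LZK KO untreated replicate 2, 3 or 4 or WT untreated replicate 1.

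TUBGCP4 went the other way in ATF2 gRNA, where it rose from 63.7, 62.5, 62.7, 59.9 and 62.0 CPM to 76.7, 72.6, 76.0, 72.8 and 71.6 CPM, with the libraries apart (0.25 ± 0.04, adjusted p = 3.38e-06). TP53BP1, on the other strand, had -0.14 ± 0.03 in the same comparison. MZT1 was called in 0 of the 5 untreated comparisons in edgeR (-0.25 to 0.10, adjusted p of 0.185 or more, 0 at an unadjusted p under 0.05). With only the groups compared in the fit, MZT1 was called in double KO (-0.27, adjusted p = 0.0154), as were TUBGCP4 (-0.19, adjusted p = 0.0131) and TUBGCP6 (-0.21, adjusted p = 0.00803).

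In all, 2 of the 9 members were called in untreated DLK KO (34.5% of all genes; 3 members with libraries apart, against 36.6%), 3 in LZK KO (33.9%; 3 apart, against 30.8%) and 6 in double KO (45.7%; 7 apart, against 47.2%). In experiment 2 it was 5 in ATF2 gRNA (39.9%; 3 apart, against 29.4%) and 0 in JUN gRNA (11.2%; 0 apart, against 9.22%), where edgeR gave 1 member at an unadjusted p under 0.05 and DESeq2 also called 0. The shares are near the background for so few genes, so the counts are no result about the complex. The median of the members was -0.26 (double KO), -0.14 (DLK KO), -0.09 (LZK KO) and 0.03 (both guides), and that of all genes lay between 0.00036 and 0.02.

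**Figure D5:**
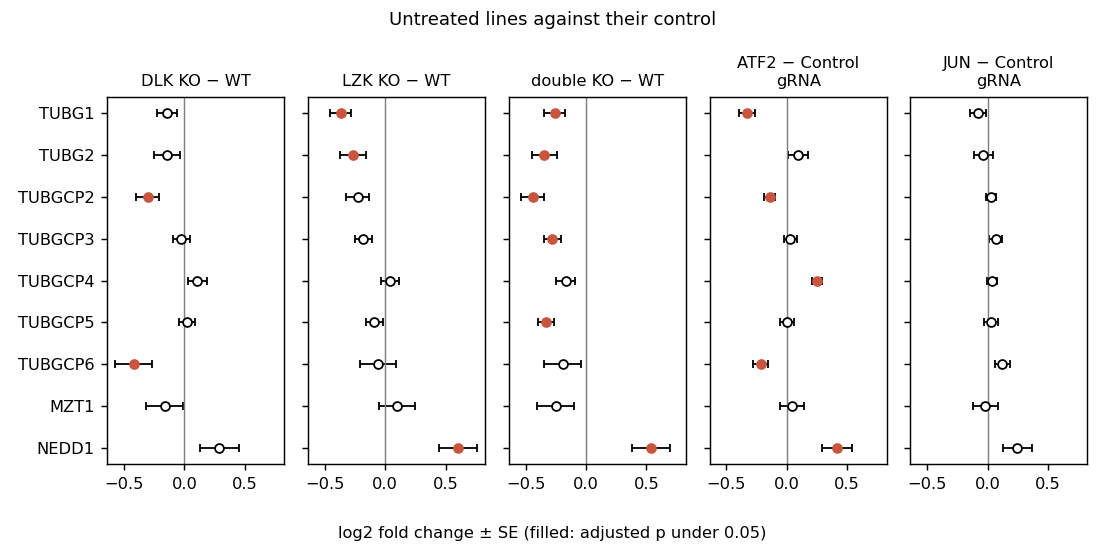
Log2 fold change of each untreated line against its control (horizontal axis) with its SE for the 9 members (vertical axis), filled red where the adjusted p was under 0.05, in 5 panels. In double KO 5 members lie below 0 and 1, NEDD1, above it among those called, and in JUN gRNA 0 members are called.

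Markers of other cells and of cycling cells also differed between the untreated lines. The 10 cycling genes summed to 34.4 to 38.7 CPM in WT, 48.5 to 54.1 in DLK KO, 102 to 111 in LZK KO and 49.9 to 61.8 in double KO, and to 49.2 to 62.9 CPM over the untreated lines of experiment 2. The 4 pluripotency markers summed to 2.60 to 3.35 CPM in WT and 10.3 to 14.3 in DLK KO. They summed to 13.2 to 18.8 CPM in LZK KO and 52.9 to 59.0 in double KO. In experiment 2 they summed to 9.58 to 13.5 CPM in Control gRNA, 33.8 to 40.2 in ATF2 gRNA and 17.3 to 19.1 in JUN gRNA. Of these 4 markers, 2 passed the filter on low counts in experiment 1 and 3 in experiment 2. The 5 progenitor markers summed to 779 to 824 CPM in WT, 226 to 295 in DLK KO, 549 to 703 in LZK KO and 290 to 303 in double KO, and to 1326 to 1418 in Control gRNA, 763 to 838 in ATF2 gRNA and 965 to 1088 in JUN gRNA. With vincristine the progenitor markers summed to 1055 to 2094 CPM in WT and 521 to 635 in DLK KO. They summed to 1053 to 1253 CPM in LZK KO and 288 to 305 in double KO. In experiment 2 they summed to 2559 to 2655 CPM in Control gRNA, 729 to 838 in ATF2 gRNA and 1669 to 1775 in JUN gRNA. Their part in the vincristine values and in the differences of NEDD1, TUBG1 and the GCP subunits was not tested.

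The alpha- and beta-tubulins, which build the microtubule, moved with TUBG1. Of 12 such genes, 10 fell and 1 rose with vincristine in WT, with a median log2 fold change of -1.52, and 9 fell and 1 rose in Control gRNA, with a median of -1.35. Of all genes tested, 14.5% and 18.1% were called lower in these comparisons. TUBA1B fell by 2.28 ± 0.11 in WT and by 1.94 ± 0.06 in Control gRNA, and TUBB3, the neuronal beta-tubulin, by 0.90 ± 0.10 and 0.66 ± 0.12. TUBB6 was the gene that rose, by 0.95 ± 0.16 in WT and 0.94 ± 0.13 in Control gRNA. In the remaining lines TUBB6 was not called and lay between -0.18 and 0.45. The number that fell was 10 for DLK KO (median -1.38; 2.28% of all genes called lower), 8 for LZK KO (-0.93; 1.61%), 8 for the double KO (-1.45; 0.0603%), 9 for ATF2 gRNA (-1.46; 4.22%) and 10 for JUN gRNA (-1.37; 8.31%).

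In double KO, 12 genes in all were called with vincristine, 11 of them lower. TUBG1 was 1 of the 11, beside 8 alpha- and beta-tubulins (TUBA1B, TUBB4A, TUBA1A, TUBB, TUBB4B, TUBB2A, TUBB2B and TUBB3, from -1.66 to -1.10), the axonemal gene HYDIN (-0.51) and the unnamed gene AL662797.1 (-1.87). The single gene that rose was STMN4 (0.41 ± 0.08), of the stathmin family of tubulin-binding proteins. Of the other 2 tubulin families, epsilon-tubulin TUBE1 rose in WT (1.30 ± 0.12) and in Control gRNA (0.90 ± 0.07), and delta-tubulin TUBD1 fell in Control gRNA (-0.38 ± 0.15). In the remaining lines TUBE1 was not called and lay between 0.01 and 0.16.

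The pattern over groups put TUBG1 among these tubulins. Over 12338 genes, the 5 whose group means of log2 CPM were most like TUBG1, by the lower Pearson r of both experiments, were TUBB4B (r of 0.985 over 8 groups and 0.986 over 6), TUBA1B (0.965 and 0.971), TUBB4A (0.938 and 0.949), TUBB (0.924 and 0.897) and TUBB2A (0.894 and 0.943). TUBG2 was at rank 706 on that list, with r of 0.453 and 0.848. Those most like TUBG2 were PCDHAC2 (0.892 and 0.979), TUBA4A (0.849 and 0.924), AC139887.2 (0.862 and 0.843), ST6GALNAC4 (0.831 and 0.936) and EEF2K (0.830 and 0.900). The groups share libraries, scaling and the drug contrast, so these values are a description.

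Without drug the alpha- and beta-tubulins were also lower in ATF2 gRNA, where TUBG1 fell: 9 of 12 fell (20.2% of all genes were called lower) and 2 rose (median -0.71), from TUBA1A at -1.24 ± 0.05 to TUBA4A at 0.88 ± 0.06. In DLK KO 9 fell (17.9%) and 0 rose (median -0.31) while TUBG1 was at -0.14 ± 0.09 and not called. In LZK KO 3 fell (16.8%) and 2 rose (median 0.06), in double KO 6 fell (22.1%) and 2 rose (median -0.18), and in JUN gRNA 2 fell (5.46%; median -0.10).

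Of 19 factors that recruit the ring or act at minus ends, 4 rose with vincristine in WT (median 0.05, with 30.2% of all genes called) and 7 rose and 1 fell in Control gRNA (median 0.14, with 35.3% called), shares that for so few genes are near the background. NIN, ninein, which anchors microtubules at their minus ends, rose in both, by 1.01 ± 0.05 and 0.98 ± 0.09. CDK5RAP2, which binds and activates the ring, rose by 0.31 ± 0.06 and 0.13 ± 0.05. In the untreated lines the partners of MZT1 differed from it: MZT2A fell by 1.20 ± 0.09 and MZT2B by 1.21 ± 0.10 in DLK KO, and by 0.64 ± 0.09 and 0.32 ± 0.09 in LZK KO, while MZT1 was at -0.16 ± 0.15 and 0.10 ± 0.15. MZT2A and MZT2B are near-identical copies, so their counts may be split between them. The list held 8 called genes of 19 for DLK KO (34.5% of all genes), 9 for LZK KO (33.9%), 10 for the double KO (45.7%), 13 for ATF2 gRNA (39.9%) and 2 for JUN gRNA (11.2%).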

How the data were processed

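Per the labels' protocols, poly(A) RNA was made into stranded libraries and sequenced as pairs of 100 bases. The authors deposited whole-number raw counts per gene, 1 table per experiment, with columns that per the file headers come from adapter-trimmed alignments with marked duplicates. The submitters' processing notes name cutadapt 3.4, STAR, featureCounts, Subread 2.0.1 and GRCh38, and the strand setting and the treatment of duplicates and shared reads are not given in the sources used here. All count columns were mapped to samples by name. Members were matched through GENCODE 29, where 8 of the 9 gene models are the same, and the model of TUBGCP3 has another version. The exon length deposited by the authors with the counts was used for RPKM.

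Counts were filtered with filterByExpr, scaled with TMM factors and fitted by the quasi-likelihood method of edgeR 4.0.16 (robust, R 4.3.3), all groups of an experiment in 1 fit, and p-values, 2-sided, were Benjamini-Hochberg adjusted over all genes, with calls at an adjusted p under 0.05. SE is the log2 fold change over the square root of F, and SD is between libraries. The fit was also run on simulated counts, and nothing is read from that run here. The TUBG1 to TUBG2 ratio was tested with exact permutation tests (scipy 1.17.1). Alternatives were DESeq2 1.42.0, RLE factors, other filters, a replicate block, only the groups compared, and each library left out.

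The members and lists were chosen with earlier results of these data known. Named are all 9 members, and the 5 genes most like TUBG1 and TUBG2 among genes with a mean log2 CPM of at least 1. Of the lists described, some of the called genes with high or low fold changes are named, and not all of them. TUBG1, TUBB and TUBA1B starts and the genes called in double KO were singled out after their values were seen.

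The fewest counts of a member in a library were 52, for NEDD1 in experiment 1, so counting error adds to its spread there, and the fewest in experiment 2 were 214, also for NEDD1. No 2 libraries of a group agreed within sampling noise.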

Additional observations from a re-analysis of the deposited data

Results flagged for a closer look

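In 9 of 126 groups of member levels, 1 library lay far from the others by Dixon's criterion, which chance gives in about 1 group in 20. They were TUBG1 in LZK KO untreated replicate 3 (37.2 CPM), TUBG2 in double KO untreated replicate 2 (20.6 CPM) and vincristine replicate 1 (12.4 CPM), and MZT1 in WT untreated replicate 1 (32.5 CPM) and DLK KO untreated replicate 3 (28.5 CPM). The GCP subunits gave TUBGCP2 in WT vincristine replicate 4 (62.6 CPM), TUBGCP3 in JUN gRNA untreated replicate 2 (52.4 CPM), TUBGCP4 in ATF2 gRNA vincristine replicate 2 (70.3 CPM) and TUBGCP5 in DLK KO untreated replicate 2 (38.1 CPM).

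The vincristine effect differed between a line and its control, by the interaction term, in 8 cases. For TUBG1 the difference on the log2 scale was 0.48 for DLK KO, 0.71 for LZK KO and 0.60 for the double KO, each against WT, and 0.38 for ATF2 gRNA against Control gRNA. For MZT1 it was 0.75 in LZK KO and 0.93 in double KO, for TUBGCP3 -0.31 in double KO, and for TUBGCP4 -0.19 in ATF2 gRNA. The contrast behind these terms also entered the choice of the members.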

How the results depend on the processing

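No fold change of a called member turned its sign under any alternative run. Of the fold changes with a library left out, 1671 kept their side of the threshold, 36 lost a call and 21 gained one, and under the other alternatives it was 892, 10 and 16. Counts of called members moved by over 1.5 times as follows. Without a filter on low counts, untreated DLK KO went from 2 to 1 and the ATF2 gRNA difference in effect from 2 to 1. With DESeq2 the difference in effect went from 1 to 2 in DLK KO and from 0 to 1 in JUN gRNA, and with a filter at a mean of 1 CPM that of DLK KO went to 2. With only the groups compared in the fit, the difference in LZK KO went from 2 to 1, and vincristine in DLK KO and in double KO from 1 to 3 each. With 1 library left out, the counts ran from 1 to 3 for the difference in ATF2 gRNA, from 1 to 2 for those in DLK KO and LZK KO, from 0 to 1 for that in JUN gRNA, from 1 to 3 for untreated DLK KO and from 1 to 2 for vincristine in ATF2 gRNA. Without the filter, calls were also lost for untreated TUBG1 in double KO, TUBG2 in LZK KO and TUBGCP2 in ATF2 gRNA, for vincristine in Control gRNA on MZT1 (adjusted p = 0.118) and NEDD1 (0.0699), and for the TUBGCP3 difference in double KO (0.151). The cause was not tested.

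Replicate numbers do not pair the samples by the labels, and over 30 pairs of same-numbered libraries the deviations from group means correlated at -0.176 to 0.110, with 1 pair above 0.1. With the replicate block, the TUBG1 to TUBG2 ratio of untreated ATF2 gRNA differed by -0.42 with an adjusted p of 0.312 in the exact permutation test, from the smallest p that 5 pairs allow, and the LZK KO call of TUBG2 was lost (adjusted p = 0.0518), while no other call changed. With 1 library left out, that ratio differed by -0.46 to -0.38.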

Other observations

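Of the 7 centriole duplication genes, 6 rose in untreated LZK KO (median log2 fold change 0.42, where 33.9% of all genes were called), with STIL at 1.11 ± 0.20 and PLK4, the kinase that starts duplication, at 0.81 ± 0.18. In that line 9 of the 10 cycling genes also rose, CDK1 by 4.09 ± 0.51 and TOP2A by 3.79 ± 0.19. Of the augmin subunits, which bring the ring to existing microtubules, HAUS6 rose in untreated DLK KO (0.37 ± 0.09), LZK KO (0.39 ± 0.09) and double KO (0.22 ± 0.09), and HAUS1 fell in double KO (-0.84 ± 0.15) and rose in LZK KO (0.54 ± 0.14). With vincristine 0 of the 7 tested augmin genes were called by edgeR in WT (30.2% of all genes; 1 of the 7 at an unadjusted p under 0.05) and 4 of 8 in Control gRNA (35.3%), among them HAUS5 at 0.49 ± 0.10.

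NINL, a ninein-like factor of the recruitment list, fell by 5.37 ± 0.08 on the log2 scale in untreated ATF2 gRNA. TUBGCP5 was at 0.02 ± 0.07 in untreated DLK KO, while its 80 tested neighbours within 5 Mb had a median of -0.88, with 45.0% of them called against 34.5% of all genes.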
